A study of Mus musculus with 8 samples.

Results

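Synovial joints form where a band of flattened cells, the interzone, interrupts a cartilage template, and interzone descendants go on to make articular cartilage, ligament and synovium. The outermost cells of articular cartilage, the superficial zone, secrete the lubricant proteoglycan 4 and hyaluronan. At this stage of mouse growth the ends of long bones carry synovial joints, and the bodies of the vertebrae are joined by intervertebral discs while their facet processes carry synovial joints. The genes described here are 9 genes known from joints and the superficial zone: the growth factor gene Gdf5, the transcription factor genes Erg and Creb5, the lubricant and matrix genes Prg4, Cilp and Cilp2, the hyaluronan synthase gene Has2, the protease gene Htra4 and the tubulin-binding protein gene Tppp3.

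They were taken by name from a table of 22053 rows of protein-coding genes. By name 8 of the 9 were found, each on a single row. The remaining one, Creb5, stood in the table under its older symbol 9430076C15Rik and was matched through its Ensembl identifier, ENSMUSG00000053007. RNA-seq was done on 8 libraries of sorted cells from wild-type mice at postnatal day 10. Candidate vertebral skeletal stem cells (vSSC) from spine gave 4 libraries, and long bone skeletal stem cells (lbSSC) from femur and tibia gave 4, with 2 males and 2 females at each site. Both groups were sorted for CD200 and against CD105, 6C3, Thy, CD45, TER119 and CD31. Whether a library holds 1 animal or a pool is not in the labels, which call the libraries biological replicates, and a p-value therefore speaks of the spread among these 8 libraries.

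Levels are in FPKM, as the authors deposited them, which counts fragments relative to the length of the transcript and to all mapped fragments. Over the listed genes, vSSC libraries summed to 517314 to 571869 FPKM and lbSSC libraries to 460302 to 521489. The depth behind a single value is unknown. Each difference is the vSSC mean less the lbSSC mean of log2(FPKM + 1), ± SE, from a limma fit over the 10729 genes that reached 1 FPKM in 4 or more libraries. Genes were called where the p adjusted by Benjamini-Hochberg was under 0.05. All 9 genes entered the fit, and each lay above 3 FPKM in every library, so none was tested through the site where it was high.

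Markers of cartilage were abundant at both sites. Col2a1, the main cartilage collagen, lay between 7440 and 15100 FPKM in vSSC and between 10800 and 20000 in lbSSC. The 7 chondrocyte markers summed to between 13500 and 22300 FPKM in vSSC and between 15400 and 25200 in lbSSC. Most of that was Col2a1. Hapln1, at 1700 to 2090 and 888 to 1130, and Matn3, at 1390 to 1610 and 449 to 645, were higher in vSSC. The ranges of Acan, Sox9, Col9a1 and Col11a1 overlapped. The 7 tendon markers summed to 1430 to 2170 in vSSC and 1960 to 3290 in lbSSC. Most of that was Fmod, at 1340 to 2060 and 1810 to 3120. The 5 osteoblast markers summed to 874 to 1010 and 3850 to 5630, and the 4 hypertrophic markers to 454 to 550 and 494 to 853. Of the hypertrophic markers, Col10a1 was lower in vSSC, at 110 to 167 against 291 to 405. Ihh was higher, at 83.6 to 103 against 24.9 to 42.9, and Mmp13 and Ibsp overlapped. The osteoblast sum was mostly Col1a1, at 623 to 788 in vSSC and 3640 to 5340 in lbSSC, whereas Sp7 was at 41.5 to 49.0 in vSSC and 23.7 to 32.6 in lbSSC. The sum of 9 synovial fibroblast markers, 368 to 382 in vSSC and 323 to 375 in lbSSC, was nearly all Htra1. Of its other members Pdpn was at 8.95 to 10.9 FPKM in vSSC and 18.2 to 21.4 in lbSSC, Cd34 at 4.52 to 8.36 and 5.38 to 8.13, and Thy1, Clic5 and Pi16 reached at most 0.600, 0.596 and 0.546 FPKM in any library. Of the other cell types, the 7 haematopoietic markers summed to 134 to 222 in vSSC and 13.8 to 60.6 in lbSSC. Most of that was S100a8, at 118 to 192 and 9.28 to 51.9. Lyz2, Cd79a and Ptprc were also higher in vSSC, Ptprc under 1 FPKM throughout, and Cd68, Csf1r and Itgam overlapped. The 6 erythroid markers summed to 3800 to 5350 and 4240 to 8740, and the 4 muscle markers to 19 to 30.8 and 4.50 to 6.28. The muscle sum was mostly Tnnt3, at 15.1 to 21.9 and 2.56 to 3.46. Mylpf was also higher in vSSC, and Ckm and Myh3 did not exceed 0.0874 FPKM. Cd200 lay between 85.1 and 133 FPKM in vSSC and 84.2 and 143 in lbSSC, and among genes of the excluded surface proteins Pecam1, Ptprc, Thy1, Enpep and Eng the highest value was 1.76 FPKM, that of Enpep in an lbSSC library. The vSSC libraries of replicates 1 and 3 stood apart from the other two in Col2a1, with 7440 and 7530 FPKM against 13400 and 15100, and in the share of summed FPKM held by 83 ribosomal protein genes, 21.2% and 21.4% against 19.5% and 18.3%. In lbSSC that share was 15.7% to 18.4%.

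Between vertebral and long bone cells 4 of the 9 joint genes were called. Gdf5, Cilp2 and Creb5 were lower in vSSC and Tppp3 was higher, and Prg4, Erg, Cilp, Has2 and Htra4 did not pass. Of all genes tested 23.5% were called, 14.3% higher and 9.17% lower in vSSC. The groups did not overlap in 3 of the 9, Gdf5, Cilp2 and Tppp3, against 25.8% of all genes tested (15.8% with vSSC above and 9.99% with lbSSC above). The median difference of the 9 was -0.07, and that of all genes tested was 0.08. The 4 calls were the same, 3 lower and 1 higher, after median-of-ratios scaling, quantile normalization and rescaling to one sum, whereas the share of all calls that were higher in vSSC was 60.9% as deposited and 51.9%, 50% and 42.4% under those scalings. The median of all genes was then 0.01, 0.03 and -0.04. The count over all genes was 2518, and 1673, 1646, 1534 and 1589 without vSSC replicate 1, vSSC replicate 3, lbSSC replicate 3 and lbSSC replicate 4.

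**Figure D1:**
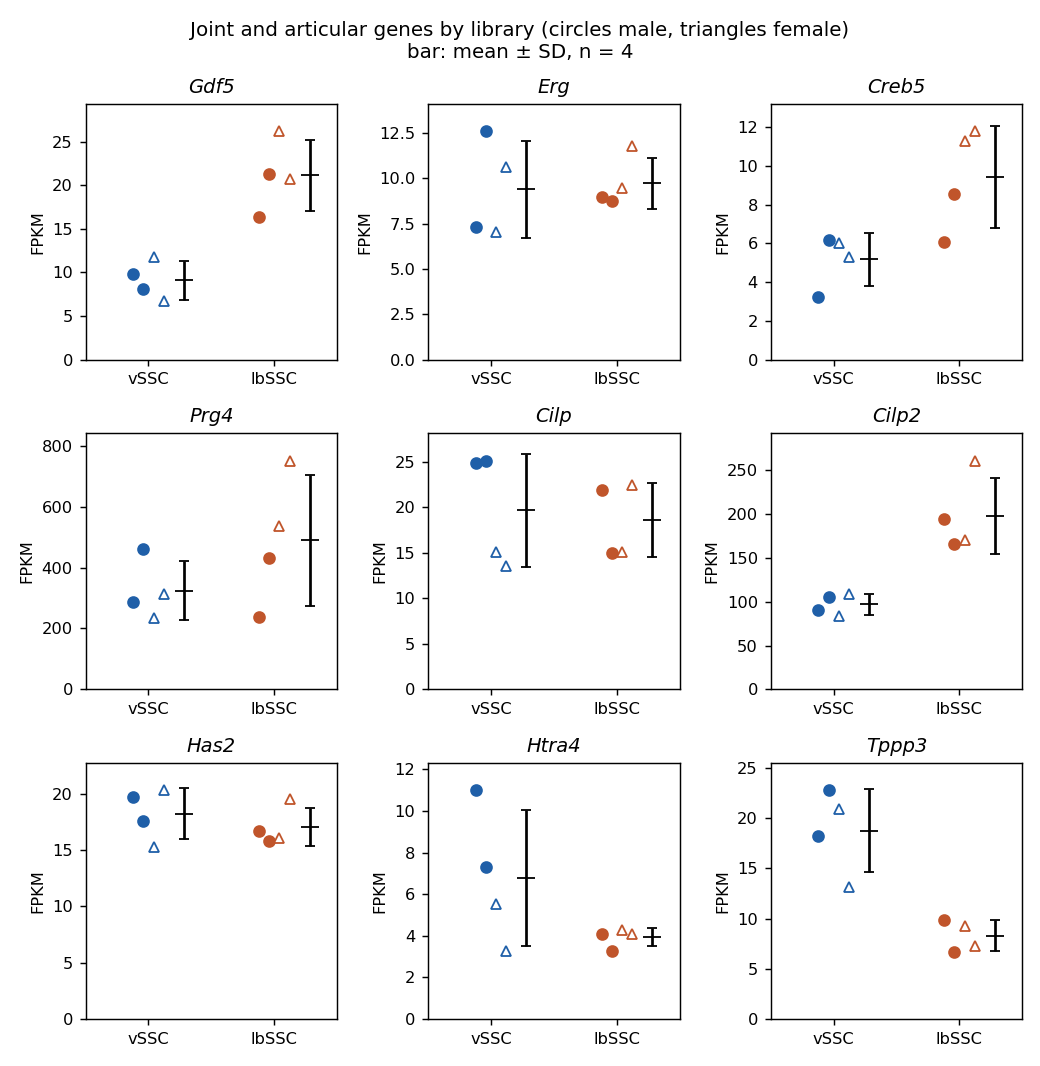
FPKM of the 9 genes in each library, vSSC on the left and lbSSC on the right of each panel, with circles for male and triangles for female libraries and bars for the mean ± SD (n = 4 per site). Gdf5 and Cilp2 lie lower and Tppp3 higher in every vSSC library than in any lbSSC library, and the other 6 panels overlap.

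Gdf5 encodes a bone morphogenetic protein family ligand of the joint interzone, and its loss in the mouse removes certain joints of the limb. It lies on chromosome 2 of GRCm38 at 155941023 to 155945367. Gdf5 was at 9.83, 8.11, 11.8 and 6.68 FPKM in vSSC libraries 1 to 4, against 16.3, 21.3, 26.2 and 20.7 FPKM in lbSSC libraries 1 to 4. Every vSSC library lay below every lbSSC library, and the mean was 9.10 ± 2.20 FPKM in vSSC and 21.1 ± 4.06 in lbSSC (SD, n = 4 each), 2.32 times higher in lbSSC. The difference was -1.14 ± 0.18 (adjusted p = 0.00111). It was the one gene of the 9 whose call held in all 23 alternatives, with values from -1.38 to -0.98. An antisense gene, Gm15557, overlaps Gdf5 and was listed at no more than 0.297 FPKM in vSSC and 0.887 in lbSSC. In bulk RNA, fewer cells that express a gene and less of its RNA per cell cannot be told apart, which holds for each gene below.

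Erg encodes an ETS family transcription factor found in joint and articular chondrocytes and also in endothelium. On chromosome 16 it spans 95359169 to 95586593. Erg was at 7.33, 12.6, 7.05 and 10.6 FPKM in vSSC, against 8.95, 8.73, 9.44 and 11.8 FPKM in lbSSC. The vSSC values enclosed those of lbSSC, and replicates 1 and 3 were the low ones in vSSC. The means of 9.39 ± 2.67 and 9.72 ± 1.39 FPKM (vSSC and lbSSC) differed by -0.07 ± 0.18, with a 95% interval from -0.47 to 0.32 (adjusted p = 0.797). The 10 endothelial markers summed to 3.91 to 7.40 FPKM in vSSC and 2.98 to 5.58 in lbSSC. Most of that in vSSC was Egfl7, at 3.56 to 6.68 FPKM in vSSC and 1.66 to 2.82 in lbSSC. Plvap ran the other way, at no more than 0.245 FPKM in vSSC and at 0.951 to 2.44 in lbSSC, and the defining markers Pecam1, Cdh5, Kdr, Tek, Tie1 and Emcn did not exceed 0.255 FPKM in any library. Fli1, the closest relative of Erg, averaged 2.80 ± 0.833 FPKM in vSSC and 2.76 ± 0.366 in lbSSC and did not pass, and Fev, the other one, was listed at 0 in all 8 libraries.

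Creb5 encodes a bZIP transcription factor of the CREB and ATF family that binds the cAMP response element, and in bovine articular chondrocytes it is known to be needed for Prg4 expression. On chromosome 6 it spans 53287270 to 53700376. Creb5 was at 3.22, 6.16, 6.04 and 5.30 FPKM in vSSC, against 6.10, 8.54, 11.3 and 11.8 FPKM in lbSSC. The groups touched, since lbSSC replicate 1 fell just below vSSC replicate 2. The mean was 5.18 ± 1.36 FPKM in vSSC and 9.45 ± 2.66 in lbSSC. They differed by -0.75 ± 0.22 (adjusted p = 0.0310). This call rested on single libraries. It was lost when vSSC replicate 1 was left out (-0.58, adjusted p = 0.0745), likewise lbSSC replicate 3 (-0.66, 0.0904) and lbSSC replicate 4 (-0.64, 0.0976), and over all 23 alternatives the adjusted p ran from 0.00434 to 0.808. The relatives Atf2 (-0.24 ± 0.14) and Atf7 (-0.65 ± 0.27, adjusted p = 0.104) did not pass.

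RefSeq promoter sequences were at hand for Erg, Creb5, Cilp and Cilp2, and not for Prg4, Gdf5, Has2, Tppp3 and Htra4. The RefSeq start of Cilp2 lies 295 bases inside the GENCODE gene, so its window is not shown. The windows of the other 3 are printed because they set a gene called between the sites, Creb5, beside a pair that was not. Each runs from 250 to 34 bases before the RefSeq start, 217 bases that lie outside the GENCODE gene, 5′ to 3′ on the gene's strand in build GRCm38.p6, and capitals mark matches to the motifs named after them. RefSeq lists 3 starts for Erg, 2 for Creb5 and 1 for Cilp, and the start nearest the 5′ end of the GENCODE gene was taken. Which start these cells use was not tested. The Creb5 window is chr6:53287053-53287269 on the plus strand, that of Erg chr16:95586627-95586843 on the minus strand and that of Cilp chr9:65264930-65265146 on the plus strand.
Creb5: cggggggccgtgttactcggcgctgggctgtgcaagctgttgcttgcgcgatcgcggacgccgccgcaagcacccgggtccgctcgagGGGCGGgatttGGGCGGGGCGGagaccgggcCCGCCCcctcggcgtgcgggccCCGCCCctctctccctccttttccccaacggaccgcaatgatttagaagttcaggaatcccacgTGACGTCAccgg
Erg: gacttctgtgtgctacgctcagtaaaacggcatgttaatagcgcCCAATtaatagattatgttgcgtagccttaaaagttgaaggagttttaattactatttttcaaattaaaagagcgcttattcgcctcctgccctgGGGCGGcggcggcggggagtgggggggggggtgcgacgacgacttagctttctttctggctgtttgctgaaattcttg
Cilp: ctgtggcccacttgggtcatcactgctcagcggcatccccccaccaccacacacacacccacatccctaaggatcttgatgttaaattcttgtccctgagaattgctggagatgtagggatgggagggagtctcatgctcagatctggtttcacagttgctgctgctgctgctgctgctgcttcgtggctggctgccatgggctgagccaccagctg

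The Creb5 window holds 1 full cAMP response element, TGACGTCA, which begins 45 bases before the start. Of the 32841 promoter windows of this length 1.11% hold that element on either strand. The shorter site TGACG, which the full element contains on both strands, is in 14.6% of windows and occurs in the Creb5 window only within that element. The GC box GGGCGG occurs 5 times in the Creb5 window, 1 time in that of Erg and not in that of Cilp, and is in 28% of all windows. CCAAT occurs 1 time in the Erg window and is in 30.6% of all. No match in the 3 windows was found for the TATA box TATAAA (9.84% of all), the AP-1 site TGANTCA (6.01%), the ETS core CGGAAG (10.6%) or the SOX site ACAAAG (14.6%), each searched on both strands. G and C made up 70.5% of the Creb5 window, 47.9% of that of Erg and 56.7% of that of Cilp, where the median of all windows was 52.1%. CG dinucleotides stood at 1.04, 1.09 and 0.12 of the number expected from base composition. These letters were matched to no binding data.

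Prg4 encodes proteoglycan 4, or lubricin, the boundary lubricant of synovial joints and the marker of the superficial zone. The gene, on chromosome 1, spans 150449412 to 150466165. It was the most abundant of the 9 at both sites, at the 97.5th percentile of tested genes in vSSC and the 98.6th in lbSSC. Prg4 was at 288, 462, 235 and 313 FPKM in vSSC, against 238, 431, 536 and 751 FPKM in lbSSC. The groups overlapped, with lbSSC replicate 1 at the level of the lowest vSSC libraries and lbSSC replicate 4 at 3.15 times lbSSC replicate 1. The means of 325 ± 97.1 FPKM in vSSC and 489 ± 214 in lbSSC differed by -0.52 ± 0.30, with a 95% interval from -1.18 to 0.14 (adjusted p = 0.229). The value leaned on single libraries: without lbSSC replicate 1 it was -0.82 and passed (adjusted p = 0.0293), without lbSSC replicate 4 it was -0.27 (adjusted p = 0.545), and without vSSC replicates 1 and 3 together it was -0.24 (adjusted p = 0.728). The 3′ end of Prg4 shares 524 bases with Tpr, a nuclear pore gene on the opposite strand, and the library chemistry named in the labels does not mark the strand. Tpr was at 0.233, 2.78, 0.568 and 2.86 FPKM in vSSC and 1.00, 2.59, 2.23 and 2.66 in lbSSC, so the 3 libraries lowest in Prg4 were also the 3 lowest in Tpr, and its part in the Prg4 values was not tested.

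Cilp and Cilp2 encode paralogous cartilage intermediate layer proteins, of which the human CILP product binds TGF-beta and antagonizes IGF1. Cilp lies on chromosome 9 at 65265180 to 65280605 and Cilp2 on chromosome 8 at 69880369 to 69887687. Cilp2 was at 90.5, 105, 83.6 and 109 FPKM in vSSC, against 194, 166, 171 and 261 FPKM in lbSSC. The groups were well apart, and the mean was 96.9 ± 11.9 FPKM in vSSC and 198 ± 43.6 in lbSSC, 2.04 times higher in lbSSC. They differed by -1.01 ± 0.15 (adjusted p = 0.000816), the smallest p of the 9. Cilp was at 24.9, 25.1, 15.1 and 13.5 FPKM in vSSC, against 21.9, 15, 15.1 and 22.4 FPKM in lbSSC. Its groups overlapped fully, at 19.6 ± 6.22 FPKM in vSSC and 18.6 ± 4.09 in lbSSC (0.05 ± 0.22, 95% interval -0.43 to 0.52, adjusted p = 0.892).

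The paralogs therefore stood in a different proportion at the 2 sites. Within a library, Cilp2 exceeded Cilp by 3.64, 4.18, 5.54 and 8.08 times in vSSC, against 8.89, 11.1, 11.3 and 11.7 times in lbSSC. All vSSC ratios lay below all lbSSC ratios, although vSSC replicate 4 came close to lbSSC replicate 1. On the log2((Cilp2 + 1)/(Cilp + 1)) scale the mean was 2.29 ± 0.48 in vSSC and 3.34 ± 0.17 in lbSSC, apart by -1.05 (exact permutation test over 8 libraries, two-sided, p = 0.0286, the smallest p that 70 arrangements allow). With any 1 lbSSC library left out the exact p was 0.0571 and no longer passed, and with any 1 vSSC library left out it was 0.0286. A ratio within a library does not depend on how that library was scaled, apart from the pseudocount. Since Cilp differed by 0.05 and Cilp2 by -1.01, the ratio mostly repeats the Cilp2 difference and is not a separate result. This test too was chosen with earlier results of these data known.

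**Figure D2:**
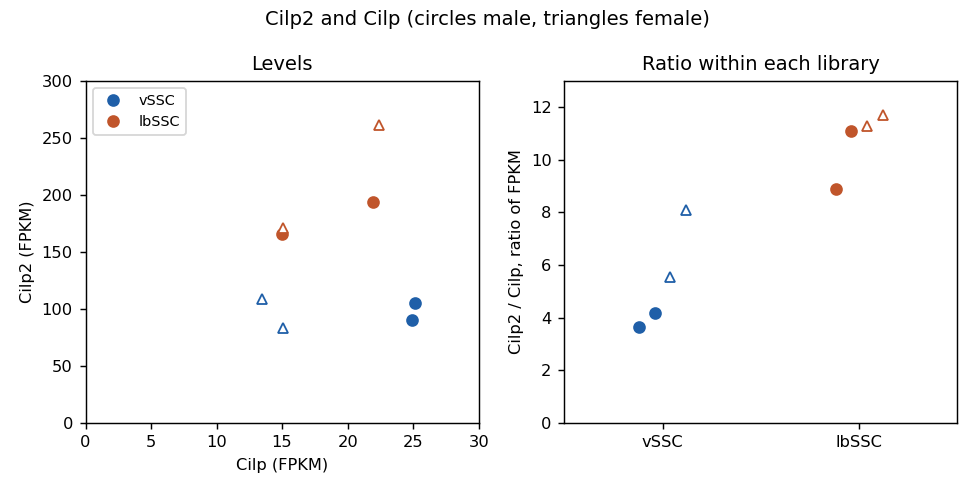
Left, Cilp2 against Cilp in FPKM, 1 point per library, vSSC in blue and lbSSC in orange. Right, the ratio of Cilp2 to Cilp within each library, 3.64 to 8.08 in vSSC and 8.89 to 11.7 in lbSSC, with circles for male and triangles for female libraries.

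Has2 encodes the plasma membrane enzyme that makes most of the hyaluronan of developing cartilage and joints. The gene, on chromosome 15, spans 56665627 to 56694539. Has2 was at 19.7, 17.6, 15.3 and 20.3 FPKM in vSSC, against 16.7, 15.8, 16.1 and 19.5 FPKM in lbSSC. It was the steadiest of the 9 in lbSSC, and its groups overlapped at 18.2 ± 2.25 FPKM in vSSC and 17.0 ± 1.66 in lbSSC. The difference of 0.09 ± 0.12 had a 95% interval from -0.18 to 0.36 (adjusted p = 0.615). The antisense transcript Has2os overlaps Has2, and reads of the pair cannot be told apart without strand.

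Htra4 encodes a secreted serine protease of the HtrA family, best known from human placenta. It lies on chromosome 8 at 25024929 to 25038962. Htra4 was at 11, 7.31, 5.55 and 3.28 FPKM in vSSC, against 4.10, 3.29, 4.28 and 4.09 FPKM in lbSSC. In vSSC the highest library was 3.34 times the lowest, and in lbSSC 1.30 times. The mean was 6.77 ± 3.24 FPKM in vSSC and 3.94 ± 0.441 in lbSSC, and the difference of 0.56 ± 0.26 did not pass (adjusted p = 0.130). Without vSSC replicate 4, the single vSSC library below the highest lbSSC one, it was 0.81 and passed (adjusted p = 0.0143), and without vSSC replicate 1 it was 0.32 (adjusted p = 0.315). Its relatives were far more abundant and did not pass, Htra1 at 353 ± 6.02 FPKM in vSSC and 321 ± 22.9 in lbSSC, Htra3 at 129 ± 5.12 and 148 ± 8.91, and Htra2, a mitochondrial member, at 41.0 ± 7.19 and 32.6 ± 4.14. Htra1 was nonetheless higher in every vSSC library than in any lbSSC library, at 347 to 361 against 292 to 346 FPKM. The antisense gene Gm16933 overlaps Htra4.

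Tppp3 encodes a tubulin polymerization-promoting protein that in the mouse marks progenitor cells of the tendon sheath and synovial lining. It lies on chromosome 8 at 105467493 to 105471526. Tppp3 was at 18.2, 22.8, 20.9 and 13.2 FPKM in vSSC, against 9.84, 6.66, 9.31 and 7.31 FPKM in lbSSC. Every vSSC library was higher than every lbSSC library, and the mean was 18.8 ± 4.16 FPKM in vSSC and 8.28 ± 1.53 in lbSSC, 2.27 times higher in vSSC. The difference was 1.08 ± 0.18 (adjusted p = 0.00145), the reverse of Gdf5 and Cilp2. The sum of 7 tendon markers, 1430 to 2170 FPKM in vSSC and 1960 to 3290 in lbSSC, was mostly Fmod and was not higher in vSSC. Of the other tendon markers, Scx, Mkx and Thbs4 overlapped between the sites, and Tnmd, Kera and Col14a1 were lower in vSSC. The haematopoietic and muscle sums, mostly S100a8 and Tnnt3, were higher in vSSC. The part of any of these cell types in the Tppp3 difference was not tested. Tppp, its paralog, reached at most 0.0350 FPKM in vSSC and was listed at 0 in all lbSSC libraries.

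**Figure D3:**
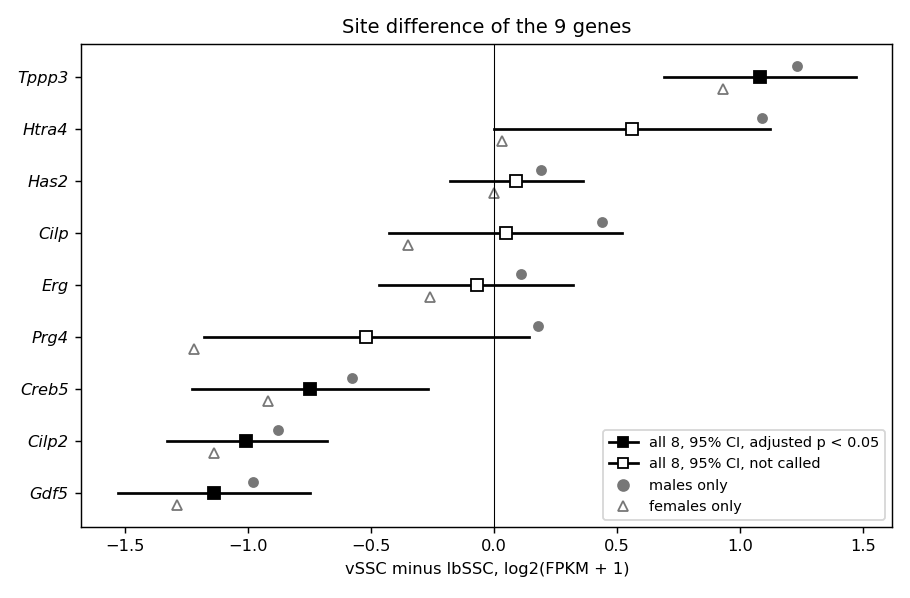
Difference of each gene between the sites, vSSC minus lbSSC in log2(FPKM + 1), as squares with 95% intervals (filled where the adjusted p was under 0.05), with the differences among males (circles) and among females (triangles) above and below. Gdf5 at -1.14, Cilp2 at -1.01, Creb5 at -0.75 and Tppp3 at 1.08 are the filled squares, and Prg4 lies at 0.18 in males and -1.22 in females.

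In vSSC the order of mean levels was Prg4, Cilp2, Cilp, Tppp3, Has2, Erg, Gdf5, Htra4 and Creb5. The library ranges of Prg4 and Cilp2, of Cilp2 and Cilp, and of Has2 and Erg were apart, and those of the other neighbours overlapped. In lbSSC the order was Prg4, Cilp2, Gdf5, Cilp, Has2, Erg, Creb5, Tppp3 and Htra4. There the ranges of Cilp2 and Gdf5, of Has2 and Erg, and of Tppp3 and Htra4 were apart. Those of the other neighbours overlapped, although Prg4 was higher than Cilp2 in each of the 4 libraries. By mean, Gdf5 therefore stood in place 7 in vSSC and place 3 in lbSSC, and Tppp3 in place 4 in vSSC and place 8 in lbSSC. Neighbouring places are not firm. Gdf5 exceeded Cilp in 2 of 4 lbSSC libraries, and in vSSC Erg exceeded Gdf5 and Tppp3 exceeded Has2 in 2 of 4.

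Within a site the 9 genes were not all high in the same libraries. In vSSC, Prg4, Cilp2 and Erg had their higher values in replicates 2 and 4, the libraries with less ribosomal protein RNA and more Col2a1. Cilp, by contrast, was high in replicates 1 and 2, the males, and Gdf5 in replicates 1 and 3. In lbSSC, Prg4, Creb5 and Erg were highest in replicates 3 and 4, where the ribosomal share was lowest at 15.7% in each. Replicates 3 and 4 are also the females, so share and sex cannot be told apart within lbSSC. This holds for the sex results below as well. With that share as a covariate 1 of the 9 genes was called, Gdf5 (-1.26, adjusted p = 0.0274), against 623 of all genes tested, or 5.81%. Cilp2 was then at -0.69 (adjusted p = 0.0722), Tppp3 at 0.85 (adjusted p = 0.112), Creb5 at -0.21 (adjusted p = 0.808) and Prg4 at 0.40 (adjusted p = 0.655). The share itself was higher in 3 of 4 vSSC libraries than in any lbSSC library, so share and site overlap in this fit, and its part in these results was not tested further. Without vSSC replicates 1 and 3 together, 3 of the 9 were called, Gdf5 (-1.38), Cilp2 (-0.86) and Tppp3 (1.00), against 1095 of all genes tested, or 10.2%.

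Males and females were alike in number at the sites, and the sex comparison with site as a covariate called none of the 9 genes by limma, against 0.0466% of all genes tested. At an unadjusted p under 0.05 it named 1 of the 9, Creb5, which was -0.44 ± 0.18 in males against females (adjusted p = 0.585), where 8.31% of all genes reached that level. The interaction of site and sex called none of the 9 and 0% of all genes tested. At an unadjusted p under 0.05 it named 3 of the 9, Prg4, Htra4 and Cilp, where 3.77% of all genes reached that level. In females Prg4 was at 235 and 313 FPKM in vSSC against 536 and 751 in lbSSC, which differ by -1.22 (adjusted p = 0.0268 in a fit of females alone). In males it was at 288 and 462 FPKM in vSSC against 238 and 431 in lbSSC, which differ by 0.18 (adjusted p = 0.770), and the groups interleaved. The interaction itself was 1.41 ± 0.45 with an unadjusted p of 0.0106 and an adjusted p of 0.981. Htra4 differed by 1.09 in males and 0.03 in females (interaction 1.06 ± 0.37, adjusted p = 0.981). The calls of Gdf5 and Cilp2 held in males alone and in females alone, that of Tppp3 in males (1.23) and not in females (0.93, adjusted p = 0.0670), and that of Creb5 in females (-0.92) and not in males (-0.58, adjusted p = 0.308).

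Other genes of joint formation differed in both directions. Of 14 listed genes 12 were tested, of which 3 were higher and 5 lower in vSSC. The list was drawn up with earlier results of these data known, and 4 of its genes, Bmpr1b, Osr1, Gdf6 and Dcx, passed the filter on low values through a single site and so had to differ. Of the other 8, 1 was higher and 3 were lower, 50% called against 23.5% of all genes. Barx1, a homeobox gene of joint cells, averaged 13.8 ± 2.52 FPKM in vSSC and 71.1 ± 5.19 in lbSSC (-2.30 ± 0.14). Gdf6, the relative of Gdf5 in the interzone, averaged 0.112 ± 0.114 FPKM in vSSC and 1.82 ± 0.445 in lbSSC (-1.33 ± 0.17), and Gdf7 was listed at 0 in all 8 libraries. Bmpr1b, the type I receptor that GDF5 prefers, averaged 4.24 ± 0.281 FPKM in vSSC and 0.604 ± 0.258 in lbSSC (1.72 ± 0.16). Nog, which encodes the BMP and GDF antagonist noggin needed for joint formation, was at 11.2, 17.8, 13.1 and 18.5 FPKM in vSSC, against 8.80, 5.47, 4.17 and 4.67 FPKM for lbSSC (1.27 ± 0.21, adjusted p = 0.00177). Chrd, which encodes the BMP antagonist chordin, was lower, averaging 3.84 ± 0.453 FPKM in vSSC and 6.36 ± 0.582 for lbSSC (-0.60 ± 0.13, adjusted p = 0.00828). Dcx, the doublecortin gene, a microtubule-binding protein gene also seen in the interzone, averaged 0.291 ± 0.107 FPKM in vSSC and 6.66 ± 1.03 in lbSSC (-2.56 ± 0.15). Wnt9a, a Wnt ligand of the interzone, was lower (-0.61 ± 0.17, adjusted p = 0.0244), and Osr2, Jun, Tgfbr2 and Wnt4 did not pass.

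Among other genes of articular cartilage and its surface, 1 of 15 was higher and 6 were lower in vSSC. That is 46.7% called, against 23.5% of all genes tested (14.3% higher and 9.17% lower). The median of the 15 was -0.31, against 0.08 for all genes tested. This list too was drawn up with earlier results of these data known. Clu, the secreted chaperone clusterin, was at 44.9, 65.1, 57.8 and 55.1 FPKM in vSSC, against 185, 256, 307 and 264 FPKM for lbSSC (-2.15 ± 0.16, adjusted p = 5.54e-06). Crtac1, a secreted cartilage acidic protein, averaged 0.968 ± 0.478 FPKM in vSSC and 9.72 ± 1.28 in lbSSC (-2.47 ± 0.18). Foxo3, one of the FoxO factors of cartilage maintenance, averaged 8.06 ± 1.56 FPKM in vSSC and 14.1 ± 1.73 in lbSSC (-0.75 ± 0.15), whereas Foxo1 did not pass (-0.13 ± 0.18). The gene that was higher was Dpt, which encodes the matrix protein dermatopontin, at 19.5 ± 1.08 FPKM in vSSC and 3.58 ± 1.34 in lbSSC (2.21 ± 0.19).

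Other genes around hyaluronan differed in both directions. Of 13 listed genes 12 were tested, 4 higher and 2 lower in vSSC. That is 50% called, against 23.5% of all genes tested (14.3% higher and 9.17% lower). The median of the 12 was -0.18, against 0.08 for all genes tested. This list too was drawn up with earlier results of these data known. Ugdh, which makes the UDP-glucuronate that hyaluronan and sulfated chains are built from, averaged 131 ± 6.23 FPKM in vSSC and 80.1 ± 11.3 for lbSSC (0.71 ± 0.12, adjusted p = 0.00138). Ugp2, a step earlier in that route, averaged 97.3 ± 15.2 FPKM in vSSC and 57.7 ± 6.38 in lbSSC (0.74 ± 0.13). The link protein gene Hapln1, whose product ties aggrecan to hyaluronan, was higher (0.91 ± 0.12), and Vcan, a hyaluronan-binding proteoglycan gene, was lower at 1.29 ± 0.218 FPKM in vSSC and 3.08 ± 0.482 in lbSSC (-0.83 ± 0.15). The other synthases were low, Has1 at 1.28 ± 0.533 FPKM in vSSC and 1.86 ± 0.583 in lbSSC and Has3 at no more than 0.158 in any library. Of the receptor genes, Hmmr was higher in vSSC (0.54, adjusted p = 0.0283) and Cd44 did not pass. Of the genes for hyaluronan breakdown, Cemip2 was lower (-0.47, adjusted p = 0.0351), and Hyal1, Hyal2 and Cemip did not pass. The relatives of Gdf5 and Has2 are given above, of which Gdf6 was called, having passed the filter through lbSSC alone. Those of Erg, Creb5, Htra4 and Tppp3 formed a list of their own. Of the 8 genes on that list 6 were tested and 0 were called by limma, where 23.5% of all genes tested were called. Atf7 and Htra2, 2 of the 6, had an unadjusted p under 0.05. The groups did not overlap in 1 of the 6, Htra1, against 25.8% of all genes tested.

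**Figure D4:**
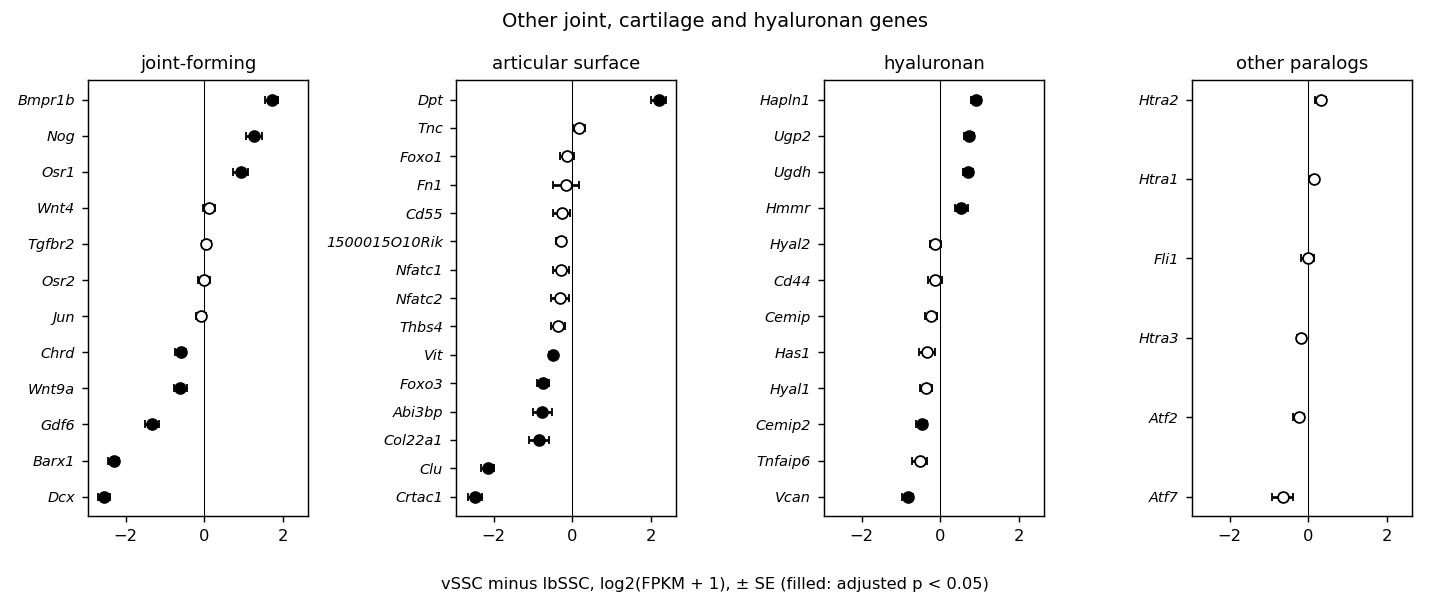
Difference between the sites (vSSC minus lbSSC, log2(FPKM + 1), ± SE) for the tested genes of 4 lists, filled where the adjusted p was under 0.05. The joint-forming list spreads from Dcx at -2.56 to Bmpr1b at 1.72. Dcx, Bmpr1b, Gdf6 and Osr1 passed the filter through a single site and so had to differ. Without them the list spreads from Barx1 at -2.30 to Nog at 1.27. In the panel of other paralogs no gene is filled, while Gdf6, the relative of Gdf5, is filled in the joint-forming panel.

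The genes whose pattern over the 8 libraries was most like that of each gene were found by the root mean square difference of standardized log2(FPKM + 1) values, where 0 is the same pattern. For Cilp2 these were Cpeb4 (0.14), Zc3h11a (0.158) and Pcdhb22 (0.176), against a median of 1.6 over all tested genes. For Tppp3 they were Qtrtd1 (0.184), Dhodh (0.191) and Cystm1 (0.20), and for Gdf5 they were Fhl1 (0.222), Rhoj (0.224) and Sord (0.232). Creb5 was nearest to Tns1 (0.239), Bcr (0.24) and Anpep (0.264). Cystm1 shared with Tppp3 a high level in each vSSC library, at 9.37, 12.9, 10.4 and 6.18 FPKM against 4.48, 1.65, 2.27 and 1.65 in lbSSC. Prg4 was nearest to Mical1 (0.269), Phf21a (0.326) and Dvl3 (0.33), and Erg to Slc6a6 (0.242), Ccdc102a (0.252) and Ybx3 (0.276). Htra4 was nearest to Tasp1 (0.251), Zfand1 (0.276) and Wdr47 (0.287). Cilp was nearest to Ephx2 (0.224), with Abhd3 (0.445) and Csrp2bp (0.446) farther off. Has2 had no close match, with Txnrd3 (0.347), Safb (0.356) and Myo9a (0.371) the nearest. These are the smallest values among all genes compared over only 8 libraries, so small values were likely for any gene. None of the 9 genes was among the nearest 3 of another, which with so many genes compared is no result about them.

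**Figure D5:**
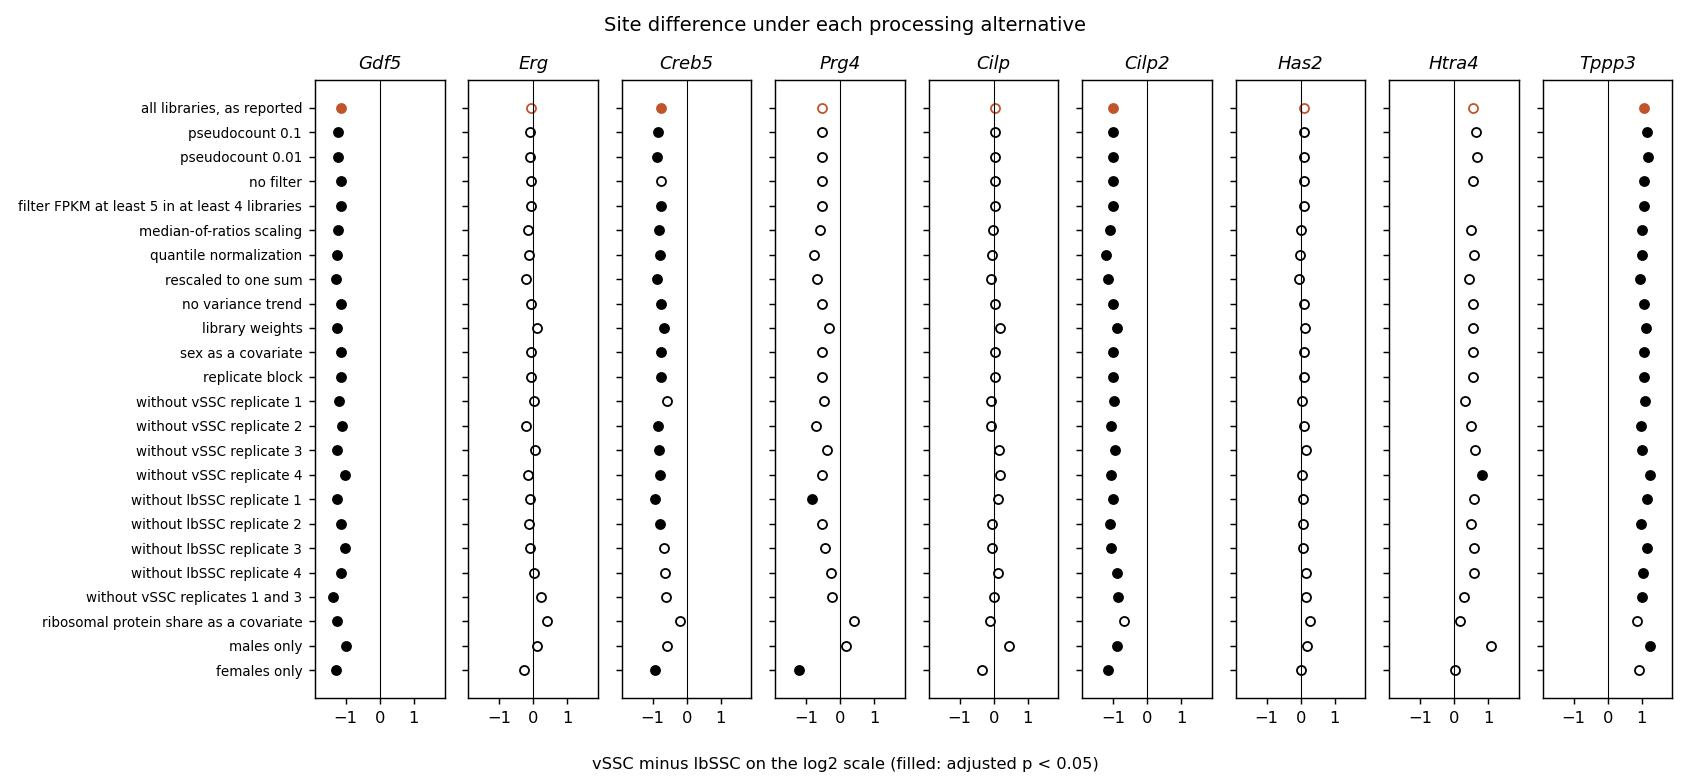
Difference between the sites for each of the 9 genes, vSSC minus lbSSC on the log2 scale, under each processing alternative, 1 row per alternative, filled where the adjusted p was under 0.05 (the orange point is the value reported). Gdf5 is filled in every row, Cilp2 in all but the row where the ribosomal share is a covariate, and Erg, Cilp and Has2 in none.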

How the data were processed

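RNA-seq of 8 libraries was used, 4 vSSC and 4 lbSSC, with group, replicate number and sex from the labels. The labels' protocols name Nextera XT and SMART-Seq v4 chemistry. Cufflinks 2.1.1, STAR 2.5.2 and bcl2fastq 2.19, with GRCm38, are listed per the submitters' processing notes. Their settings were not given in the sources used. The authors deposited FPKM per protein-coding gene, in which a gain in abundant genes lowers all others. Listed starts lay 1 below the GENCODE M21 starts for the 9 genes, and 1 was added.

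Relative depth was sought from the spacing of values in genes under 0.2 FPKM, where 1 fragment sets the step. In 28 library pairs at most 1.9% of such genes shared a ratio within 0.002 on the natural log scale, so depth stayed unknown and precision rests on replicates.

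Values were taken as log2(FPKM + 1) and tested with limma 3.58.1 in R 4.3.3 (empirical Bayes with a variance trend, no covariate, all 8 libraries), adjusted over all tested genes; the procedure was first checked on data with known differences. The members, lists and tests were chosen with earlier results of these data known. The text names the 9 genes, up to 4 genes of smallest p per list, all paralogs and the 3 nearest patterns per gene; further list genes are named for their role after their values were seen. Alternatives were pseudocounts of 0.1 and 0.01, no filter, an FPKM minimum of 5, rescaling to one sum, median-of-ratios scaling, library weights, quantile normalization, no variance trend, the replicate number as a block, sex as a covariate, each library left out, vSSC replicates 1 and 3 left out together, the share of ribosomal protein RNA as a covariate, and each sex alone. Promoter sequences are from RefSeq (GRCm38.p6), and 4 of the 9 genes matched.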

Additional observations from a re-analysis of the deposited data

Results flagged for a closer look

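Cilp went in opposite directions in the sexes. In males both vSSC libraries, at 24.9 and 25.1 FPKM, lay above both lbSSC libraries, at 21.9 and 15. In females both vSSC libraries, at 15.1 and 13.5 FPKM, lay below both lbSSC libraries, at 15.1 and 22.4, the closest pair being equal to 3 digits. The interaction was 0.79 ± 0.32 with an unadjusted p of 0.0338, and it failed the correction (limma, adjusted p = 0.981).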

How the results depend on the processing

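Of the 23 alternatives, 22 left the count of called joint genes within 1.5 times the reported 4; with the share of ribosomal protein RNA as covariate it was 1, and with 1 library left out it ran from 3 to 5. All tested genes gave 1534 to 2991 calls with 1 library left out, 1095 without vSSC replicates 1 and 3, 623 with the ribosomal share, 568 in males and 735 in females, the last 2 with fewer libraries. The joint-forming list gave 4 calls at an FPKM minimum of 5, which tests fewer genes, 5 with the ribosomal share, 3 in males and 5 in females. The hyaluronan list gave 3, 1 and 2 in the first 3 of these, and the articular list 3 in males. At the minimum of 5 all genes gave 2045 calls of 7069 tested. In the other fits 10729 were tested, with 5.81% called under the ribosomal share. The joint-forming genes tested still took in those that passed the filter through a single site. These were Dcx at the minimum of 5, and Bmpr1b, Osr1, Gdf6 and Dcx in the other fits. Among the listed paralogs 1 was called, Htra3 under each of 3 scalings (median-of-ratios, quantile, one sum) and Atf7 with the replicate block or without vSSC replicate 4, so their count with 1 library left out was 0 to 1. The sex and interaction counts stayed at 0 in the 17 alternatives run for them.

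Deviations of same-numbered libraries had r = 0.26, -0.09, -0.06 and 0.44 for numbers 1 to 4, across genes. Differently numbered libraries had r from -0.36 to 0.21. The labels do not say whether equal numbers mark pairs, and these values do not settle it. The reported fit took no pairs, and the block is given as an alternative. The replicate block kept the 4 called joint genes and gave 3194 calls over all genes, against 2518 in the reported fit. Under the block the Cilp2 to Cilp difference was -1.05 with an exact p of 0.125, the smallest that 4 pairs allow, and with 1 library left out it was -1.27 to -0.90, with an exact p of 0.0571 without any 1 of the lbSSC libraries and 0.0286 without any 1 of the vSSC libraries.

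Without a filter Creb5 was not called (-0.75, adjusted p = 0.0771). Signs of uncalled differences turned as follows. Cilp was -0.03 with median-of-ratios scaling, -0.06 with quantile normalization, -0.09 with rescaling, -0.12 with the ribosomal share, -0.35 in females and -0.08 to 0.20 with 1 library left out, with -0.04 without lbSSC replicate 2 or 3. Has2 was -0.02 with quantile normalization, -0.05 with rescaling and 0 in females. Erg was 0.10 with library weights, 0.24 without vSSC replicates 1 and 3, 0.41 with the ribosomal share, 0.11 in males, -0.21 to 0.04 with 1 library left out, and 0.02, 0.04 and 0.01 without vSSC replicate 1, vSSC replicate 3 or lbSSC replicate 4. Prg4 was 0.40 with the ribosomal share and 0.18 in males. The cause was not tested for any of these. Htra4 was not tested at a minimum of 5.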
